A study of Mus musculus with 8 samples.

Results

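The genes described here are 10 genes of the integrated stress response that centres on the transcription factor ATF4, measured by RNA-seq in the livers of diabetic db/db mice. They were chosen by name as known members of the pathway and are Atf4, Atf5, Ddit3, Asns, Trib3, Chac1, Psat1, Phgdh, Sesn2 and Ppp1r15a. All 10 were among the 41388 features counted in each library, and 7 of them passed the filter on low counts that left 12270 genes for testing. Asns, Psat1 and Phgdh did not pass it.

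In the integrated stress response, kinases that sense amino acid shortage, unfolded protein, haem shortage or viral RNA phosphorylate the translation factor eIF2. General translation then slows, while translation of Atf4 mRNA, which is held back by upstream reading frames in unstressed cells, increases. ATF4 pairs with C/EBP proteins and other basic leucine zipper factors on composite DNA elements and switches on genes for amino acid synthesis and uptake, tRNA charging and, under lasting stress, cell death. In the liver the pathway is a known driver of Fgf21, the fasting hormone followed by the study. Because ATF4 is controlled largely through translation and protein stability, mRNA levels report on the transcripts and not on the amount of ATF4 protein, and translation of these mRNAs was not analysed here.

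Both groups were db/db, a genotype without a working leptin receptor that makes mice obese and diabetic. The titles carry the db/db name, the strain label is C57B/6J, and the genotype label names the vector group only. Littermates were randomised at 5 weeks of age and received, through the tail vein, adenovirus coding for green fluorescent protein (AdGFP, 4 mice) or for NAMPT, the rate-limiting enzyme of NAD salvage (AdNAMPT, 4 mice). Liver was taken at 10 weeks of age, 1 library came from each mouse, and every mouse had received an adenovirus, so no library shows the liver without virus. The paper's methods and its figure on db/db fat tissue give shorter times from delivery to assay than the gap between these ages. The series design gives a span of overexpression close to that gap. How long these livers had carried the virus is therefore not settled here. The comparison asks whether the stress response genes differed between the livers given either vector. The promoter of the vector and the share of liver cells that it reached are not given in the sources used here.

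Libraries held between 12006713 and 19879814 reads assigned to genes, so that 3 reads, taken as the smallest detectable amount in a library, stood for 0.151 to 0.250 CPM (counts scaled to a common library total). AdNAMPT replicate 1 stood apart from the other libraries and had the lowest weight in the model, 0.44 against 0.81 to 1.41. All 6 hepatocyte markers (Alb, Apoa1, Ttr, Serpina1a, Cps1, Cyp2e1) were detected and together reached 92449 to 118496 CPM in AdGFP and 92199 to 116833 CPM in AdNAMPT. Of the 12270 genes tested, 34 changed between groups (0.277%; 2 higher and 32 lower in AdNAMPT) at an adjusted p of at most 0.05 by limma, and 1189 (9.69%) had an unadjusted p under 0.05. In the fit without a filter on low counts, 34 of 24192 genes changed (0.141%). The groups did not overlap, after scaling by TMM factors, for 588 genes (4.79%).

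The transferred gene was looked at first. Nampt (ENSMUSG00000020572) measured 102.3, 136.8, 152.7 and 141.6 CPM in AdGFP and 148.8, 120.5, 177.8 and 168.1 CPM in AdNAMPT. Its fitted difference was a log2 fold change of 0.08 (SE 0.15), with a limma adjusted p of 0.915, and 0.14 without AdNAMPT replicate 1. Since Nampt mRNA did not set the groups apart, AdNAMPT means here the libraries labelled so, and all directions rest on that label. A gene without a change below is therefore no test of what raised Nampt mRNA does.

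Promoter sequences were examined for the composite element that ATF4 and C/EBP factors recognise, searched as TGATGNAAN on both strands of RefSeq windows (GRCm38.p6) from 250 bases before to 50 bases after each start site. All 10 genes had a window, 12 windows in all, and 3 genes held a match, namely Asns, Trib3 and Chac1. A match was present in 3.95% of all 32851 windows, or in 4.50% of 27025 genes. The Fgf21 window also held a match. The stretches around these 4 matches are shown because ATF4 acts on its target genes through elements of this kind. They are written 5′ to 3′ on the strand of the gene, with the matched letters in capitals.
Asns, chr6:7693210-7693252, minus strand: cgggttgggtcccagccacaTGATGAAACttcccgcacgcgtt
Trib3, chr2:152344028-152344057, minus strand: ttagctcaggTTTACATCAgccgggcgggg
Chac1, chr2:119351028-119351076, plus strand: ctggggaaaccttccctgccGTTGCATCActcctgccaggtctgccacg
Fgf21, chr7:45615602-45615650, minus strand: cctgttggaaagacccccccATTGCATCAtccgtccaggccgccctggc

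The Asns match read in the direction of the gene and ran from base -23 to base -15, counted from the RefSeq start site. The other 3 lay on the opposite strand. The Chac1 match ran from -194 to -186 and the Fgf21 match from -140 to -132, while the Trib3 match lay after the RefSeq start site, at 14 to 22. The deposited gene spans start elsewhere for Asns, Trib3 and Chac1. On the minus strand the deposited span of Asns begins at 7693254, so its match lies inside that span. The deposited span of Trib3 begins at 152344032, so its match lies before that span. For Chac1 the deposited span begins at 119351229, and its match lies before both starts. A match is a run of letters and no measurement of binding. No match in the windows of Atf4, Atf5, Ddit3, Psat1, Phgdh, Sesn2 and Ppp1r15a means only that these letters do not occur between those limits.

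None of the 10 genes differed between AdGFP and AdNAMPT at an adjusted p of at most 0.05 by limma, against 0.277% of all genes tested. This holds for the 7 genes tested and for Asns, Psat1 and Phgdh in the fit without a filter. The count was also 0 with edgeR's quasi-likelihood and exact tests and with DESeq2, which gave no adjusted p for Phgdh. Of the 7 genes tested, 1 had an unadjusted p under 0.05 (Ppp1r15a, higher in AdNAMPT), where the share over all genes was 9.69%. Their estimates were higher in AdNAMPT for 2 genes and lower for 5, with a median log2 fold change of -0.11, and scaling by library size alone turned Sesn2, giving 3 and 4. The median of all genes tested was 0.0015, and 50.4% of them had a higher estimate. With scaling by library size alone that median was 0.0859. Groups overlapped for all 10 genes, with a background of 4.79% of genes that did not overlap. Leaving out Phgdh, which is given no fold below, the 95% confidence interval of the fold was narrowest for Atf4 (0.922-fold to 1.24-fold) and widest for Asns (0.520-fold to 3.97-fold). A miss of the threshold thus leaves much larger differences possible in the low genes than in the abundant ones.

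**Figure D1:**
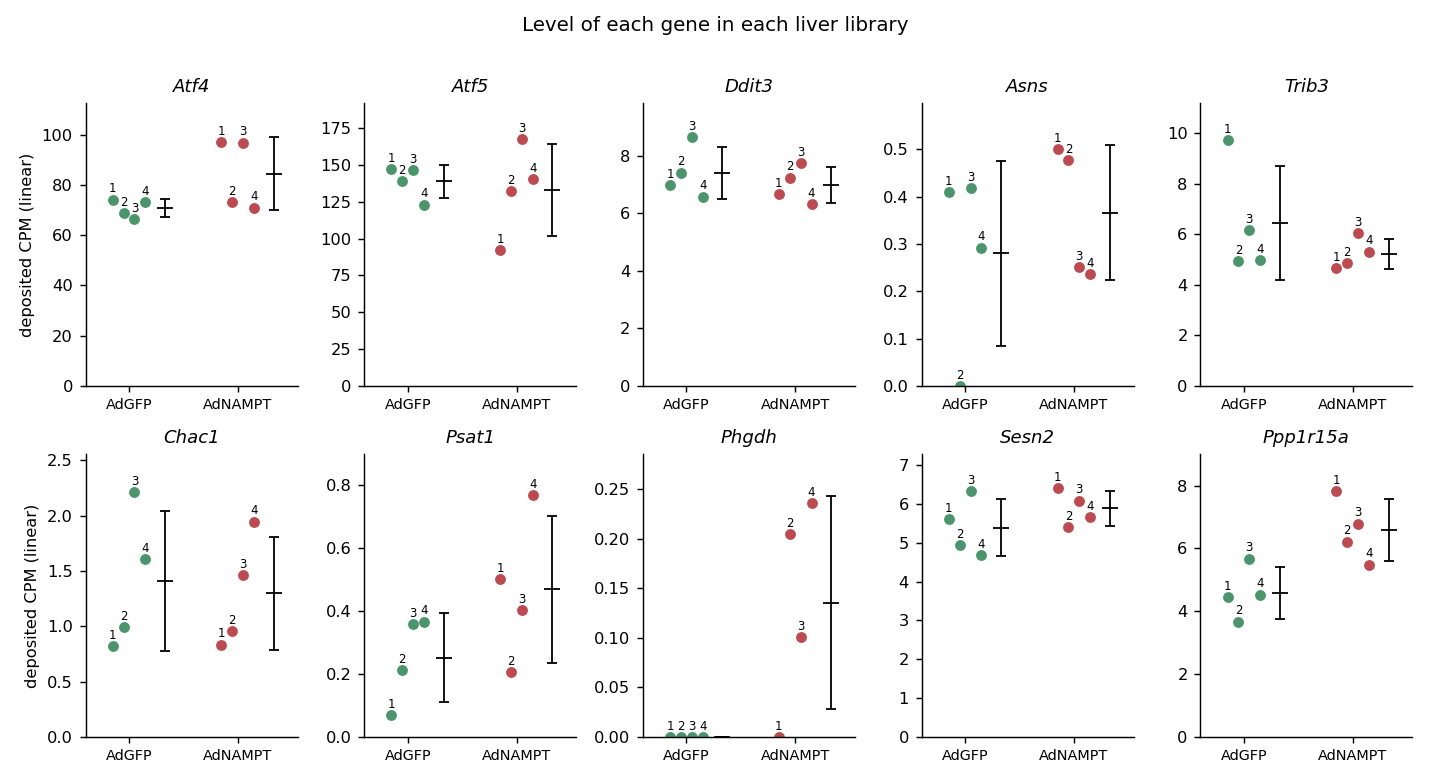
Deposited CPM (linear axis from 0, a different range for each gene) of the 10 genes in each library of AdGFP (green) and AdNAMPT (red); the digits are replicate numbers and do not pair mice, and the bar beside each group is its mean with its SD (n = 4). The groups overlap in all 10 panels, and the Phgdh points of AdGFP all lie at 0.

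At the top of the group stand the genes of a pair of transcription factors. Atf4 (ENSMUSG00000042406, chromosome 15, 80255184 to 80257540) codes for the effector itself. It measured 74.2, 69.0, 66.5 and 73.4 CPM in AdGFP and 97.1, 73.2, 96.9 and 71.0 CPM in AdNAMPT. AdNAMPT replicates 1 and 3 stood above every AdGFP library, while replicates 2 and 4 lay inside the AdGFP range. The AdGFP mean was 70.8 ± 3.67 CPM and the AdNAMPT mean 84.6 ± 14.4 CPM (SD, n = 4 in each group). On the log2 scale the fitted difference was 0.09 with an SE of 0.10 (95% confidence interval -0.12 to 0.31), and limma gave an adjusted p of 0.799. Leaving out AdNAMPT replicate 3 moved it to 0.01, the lowest of the alternatives, and leaving out AdNAMPT replicate 2 gave the highest, 0.19.

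Atf5 (ENSMUSG00000038539, chromosome 7, 44812257 to 44816658) codes for a related factor that is itself induced by eIF2 phosphorylation and takes part in the mitochondrial stress response. It measured 147.4, 139.0, 146.4 and 123.1 CPM in AdGFP and 92.3, 132.2, 167.8 and 140.7 CPM in AdNAMPT. AdNAMPT held both the lowest and the highest of the 8 libraries. Limma estimated a log2 fold change of -0.11 with an SE of 0.13 (adjusted p 0.819), and without AdNAMPT replicate 1 it was -0.0080. The exons of Atf5 share 82 bases with Il4i1 on the opposite strand, and whether counting used strand is not given in the sources used here.

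Per length, in RPKM (CPM divided by exonic length in kilobases), Atf5 and Atf4 were by far the most abundant transcripts of the group. Atf5 averaged 68.3 RPKM (46.3 to 84.2 over the 8 libraries) and Atf4 45.1 RPKM (38.6 to 56.3). Their ranges overlapped, but Atf5 exceeded Atf4 within 7 of the 8 libraries, by a ratio of 1.45 to 1.91. The exception was AdNAMPT replicate 1, where the ratio was 0.822. These 2 genes took between 87.4% and 90.4% of all reads counted for the 10 genes in every library.

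Below them came the genes that act late in the response. Ddit3 averaged 4.20 RPKM (3.68 to 5.06), without overlap with Atf4, followed by Trib3 at 2.74, Ppp1r15a at 1.90, Sesn2 at 1.62 and Chac1 at 0.826 RPKM. Each of these neighbours overlapped the next in range, and Trib3 lay above Ppp1r15a in 7 of the 8 libraries and Ppp1r15a above Sesn2 in 6. The genes of amino acid synthesis lay lowest, with Asns at 0.118, Psat1 at 0.0845 and Phgdh at 0.0272 RPKM. Chac1 did not overlap Asns, while the last 3 overlapped each other.

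Ddit3 (ENSMUSG00000025408, chromosome 10, 127290774 to 127296288) codes for CHOP, a factor linked to cell death under lasting stress. It measured 6.97, 7.41, 8.66 and 6.58 CPM in AdGFP and 6.66, 7.24, 7.75 and 6.31 CPM in AdNAMPT. The means, 7.41 ± 0.904 and 6.99 ± 0.634 CPM (SD, n = 4 in each group), differed by less than either SD. In log2 units Ddit3 differed by -0.16 with an SE of 0.12, at an adjusted p of 0.734 in limma. Leaving out AdGFP replicate 3, its highest library, gave -0.07. Ddit3 shares 68 exonic bases with Mars and 13 with Gm4189, both on the opposite strand.

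Trib3 (ENSMUSG00000032715, chromosome 2, 152337422 to 152344032) codes for a pseudokinase that binds ATF4 and AKT and restrains both, and its window held one of the matches printed above. It measured 9.71, 4.94, 6.15 and 4.97 CPM in AdGFP and 4.66, 4.85, 6.04 and 5.31 CPM in AdNAMPT. AdGFP replicate 1 was the highest library, and the other 7 spanned 4.66 to 6.15 CPM. Its log2 fold change of -0.36, with an SE of 0.22 and a limma adjusted p of 0.641, was the lowest of the 7 tested genes. Without AdGFP replicate 1 it was -0.12.

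Chac1 (ENSMUSG00000027313, chromosome 2, 119351229 to 119354381) codes for a glutathione-degrading enzyme downstream of CHOP and ATF4. It measured 0.820, 0.988, 2.21 and 1.61 CPM in AdGFP and 0.833, 0.956, 1.46 and 1.95 CPM in AdNAMPT, from 10 to 37 reads per library. Both groups held 2 libraries under 1 CPM and 2 above it. Limma put the difference at -0.18 on the log2 scale with an SE of 0.36 (adjusted p 0.918). It was -0.03 without AdNAMPT replicate 1 and above 0 without AdGFP replicate 3 or AdNAMPT replicate 2 (0.08 and 0.03).

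Sesn2 (ENSMUSG00000028893, chromosome 4, 132492032 to 132510501) codes for sestrin 2, a leucine sensor that restrains the growth kinase mTORC1. It measured 5.60, 4.94, 6.33 and 4.68 CPM in AdGFP and 6.41, 5.39, 6.09 and 5.66 CPM in AdNAMPT. The AdNAMPT libraries spanned a narrower range that lay almost wholly inside that of AdGFP. The fitted log2 difference was -0.0087 with an SE of 0.13, at an adjusted p of 0.991 in limma, and its sign depended on the scaling and the test. The interval of -0.29 to 0.28 covered folds between 0.816 and 1.21.

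Ppp1r15a (ENSMUSG00000040435, chromosome 7, 45522916 to 45526268) codes for GADD34, the phosphatase subunit that removes the phosphate from eIF2 and so ends the response. It measured 4.44, 3.67, 5.67 and 4.53 CPM in AdGFP and 7.83, 6.21, 6.79 and 5.48 CPM in AdNAMPT. AdNAMPT replicates 1, 2 and 3 lay above all AdGFP libraries, and AdNAMPT replicate 4 lay below AdGFP replicate 3. The AdGFP mean was 4.58 ± 0.826 CPM and the AdNAMPT mean 6.58 ± 0.991 CPM (SD, n = 4 in each group). Limma estimated 0.34 on the log2 scale with an SE of 0.14, which is 1.27-fold (95% confidence interval 1.02-fold to 1.58-fold). Its unadjusted limma p was 0.0366, at place 909 among the 12270 genes, and its adjusted p was 0.492.

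The estimate for Ppp1r15a stayed above 0 in all 17 alternatives, from 0.28 to 0.46, and the unadjusted p was under 0.05 in 11 of them. It was 0.30 with an unadjusted limma p of 0.0737 without AdNAMPT replicate 1, and the unadjusted p was highest, 0.0826, without AdGFP replicate 2. Ppp1r15a shares 12 exonic bases with Tulp2 on the opposite strand. Ppp1r15b, which codes for the constitutive partner of the same phosphatase and is listed with the eIF2 regulators, had an estimate of -0.06 (SE 0.09), and a difference between the genes was not tested.

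The remaining genes code for enzymes of amino acid synthesis and were close to the detection limit, so their values come from the fit without a filter. Asns (ENSMUSG00000029752, chromosome 6, 7675169 to 7693254) makes asparagine, and its promoter match lay on the gene strand. It had 6, 0, 7 and 4 reads in AdGFP and 6, 7, 5 and 4 reads in AdNAMPT. The empty library, AdGFP replicate 2, allows up to 0.212 CPM at the floor of 3 reads, near the level of the lowest library with reads (0.236 CPM). That fit gave Asns a log2 fold change of 0.52 with an SE of 0.68 (adjusted p 0.886), and without AdGFP replicate 2 it was -0.18.

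Psat1 (ENSMUSG00000024640, chromosome 19, 15904678 to 15947337) catalyses the transamination step of serine synthesis. It had 1, 3, 6 and 5 reads in AdGFP and 6, 3, 8 and 13 reads in AdNAMPT. The highest library was AdNAMPT replicate 4 at 0.766 CPM, and the other AdNAMPT libraries spanned 0.205 to 0.500 CPM against 0.068 to 0.365 CPM in AdGFP. For Psat1 the same fit gave 0.65 on the log2 scale with an SE of 0.55 (adjusted p 0.805), 0.73 without AdNAMPT replicate 1 and 0.18 without AdGFP replicate 1.

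Phgdh (ENSMUSG00000053398, chromosome 3, 98313170 to 98339990) catalyses the first committed step of serine synthesis. It had 0 reads in all 4 AdGFP libraries, which allows up to 0.179 to 0.219 CPM each, and 0, 3, 2 and 4 reads in AdNAMPT. All 9 reads of the series thus fell in AdNAMPT, and AdNAMPT replicate 1 was at 0 like the AdGFP libraries. The AdNAMPT mean of 0.135 CPM was under the floor of each AdNAMPT library, so no fold is given. The unadjusted limma p was 0.0020 and the adjusted p was 0.302, with 0.141% of genes changed in that fit. The adjusted p ranged from 0.109 without AdNAMPT replicate 1 to 0.821 with edgeR's exact test.

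**Figure D2:**
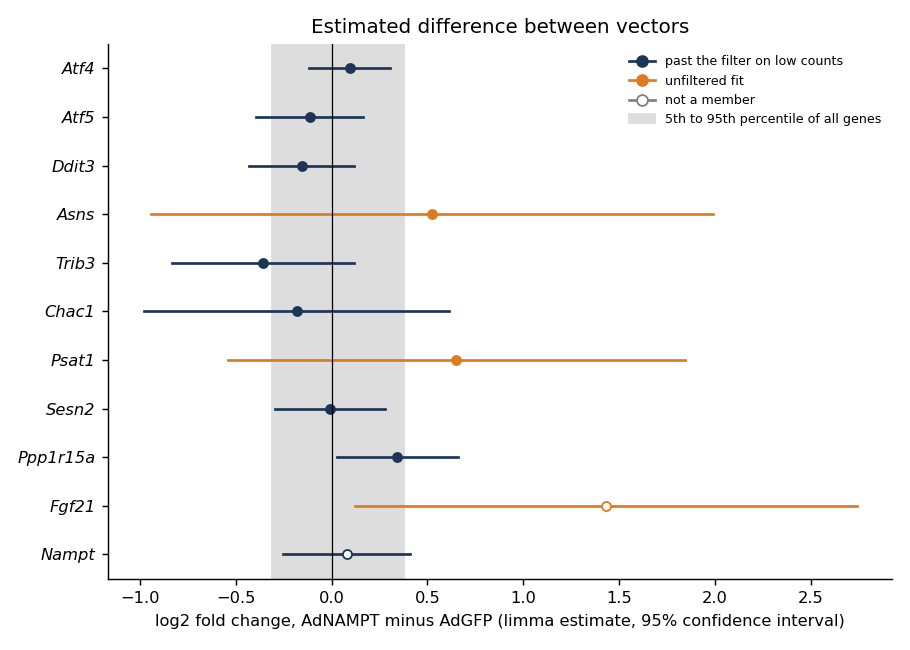
Estimated log2 fold change, AdNAMPT minus AdGFP, with its 95% confidence interval from limma for 9 of the genes (filled points) and for Fgf21 and Nampt (open points); orange marks the fit without a filter, and the grey band is the 5th to 95th percentile of all genes tested. Among the filled points only the interval of Ppp1r15a leaves out 0, and Asns and Psat1 have the widest intervals.

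Fgf21, the hepatic output of the pathway that the study follows, was also low and failed the filter, with 6, 9, 10 and 2 reads in AdGFP and 3, 19, 56 and 16 in AdNAMPT. AdNAMPT replicate 3 alone gave 56 of its 94 AdNAMPT reads. Fitted without the filter, Fgf21 differed by 1.43 on the log2 scale (SE 0.61), at an unadjusted limma p of 0.0345 and 0.652 after adjustment. The library with the most Fgf21 also had high Atf4 and Atf5, whereas AdNAMPT replicate 1, as high in Atf4, had 3 reads of Fgf21. AdNAMPT replicates 2 and 4, with 19 and 16 reads of Fgf21, had Atf4 and Atf5 inside the AdGFP ranges in CPM. A link between these genes was not tested. Without AdNAMPT replicate 1 the estimate was 1.82, and without AdNAMPT replicate 3 it was 0.99. For db/db livers the paper reports Fgf21 as upregulated, with a check by qPCR in more mice. It also reports more FGF21 protein in liver and serum of the mice given NAMPT.

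Variation from mouse to mouse was then compared between the genes. Over the 8 libraries and the 21 pairs among the 7 tested genes, Pearson's r between log2 CPM values averaged 0.067 and ran from -0.52 for Atf5 with Ppp1r15a to 0.58 for Atf5 with Ddit3. Of the pairs, 11 were positive and 10 negative. Atf4 had a negative r with Atf5 (-0.42), Ddit3 (-0.33), Trib3 (-0.16) and Chac1 (-0.48), and a positive r with Ppp1r15a (0.53) and Sesn2 (0.18). Without AdNAMPT replicate 1, which combined the highest Atf4 and Ppp1r15a with the lowest Atf5, the mean r was 0.20 and 15 pairs were positive. These values describe 8 points from both groups, all genes being read from the same libraries, and no p is given.

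**Figure D3:**
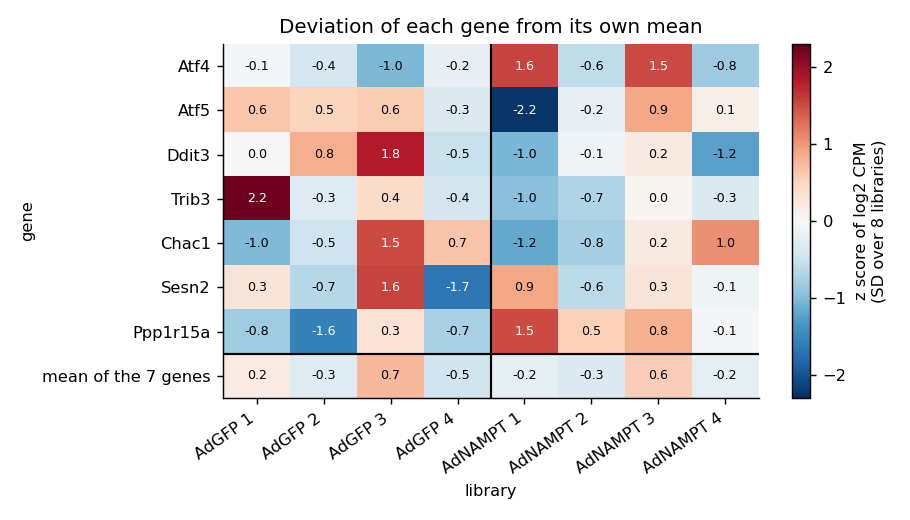
Deviation of log2 CPM (TMM scaling) of each tested gene from its own mean in units of its SD over the 8 libraries, with the mean of the 7 genes in the bottom row; red is above and blue below the mean, and the black line parts AdGFP from AdNAMPT. The mean row runs from -0.46 to 0.74, with AdGFP replicate 3 and AdNAMPT replicate 3 highest, so the high libraries come from both groups.

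A mean profile was formed from the z-scored values of the 7 genes. It was highest in AdGFP replicate 3 (0.74) and AdNAMPT replicate 3 (0.57) and lowest in AdGFP replicate 4 (-0.46). Sesn2 (r 0.76) and Ddit3 (r 0.63) lay closest to it among the 7, and Atf4 (r 0.10) lay farthest. Each of the 7 is itself part of the profile, which raises its r. Outside the group, Erf (r 0.98), Tacc2 (0.97), Surf1 (0.97), Cops9 (0.96) and Ppargc1b (0.93) were most like it over the 8 libraries. As the 5 highest among all genes tested, such values were picked for their size.

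Genes around the pathway were counted from 6 lists with 84 genes, of which 73 were tested. None changed at an adjusted p of at most 0.05 in limma, and the median log2 fold change of the 73 was -0.0078. An unadjusted limma p under 0.05 was found for 12 (16.4%), 6 higher and 6 lower, where the background was 9.69%. The lists were chosen with earlier results of these data known, so a share above the background is no test of them. Estimates split into 35 higher and 38 lower, and into 54 and 19 when scaled by library size alone. Under that scaling the median of the 73 genes was 0.0773, beside 0.0859 for all genes tested. The groups did not overlap, after TMM scaling, for 4 of the 73, where the share over all genes tested was 4.79%.

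Upstream, the eIF2 kinases, eIF2 and eIF2B subunits and their regulators had 17 of 17 genes tested and none changed, with a median of 0.0022. The 4 kinase genes had log2 fold changes of 0.08 (Eif2ak1), -0.06 (Eif2ak2), 0.12 (Eif2ak3, the kinase PERK of the endoplasmic reticulum) and -0.20 (Eif2ak4, the amino acid sensor GCN2). Impact, whose product inhibits GCN2 activation, had the smallest unadjusted p of the list. It measured 12.5, 13.7, 11.5 and 10.2 CPM in AdGFP and 18.5, 15.8, 15.3 and 14.7 CPM in AdNAMPT. All AdNAMPT libraries lay above all AdGFP libraries in CPM, but not after TMM scaling. Limma gave Impact 0.33 on the log2 scale with an SE of 0.11 (adjusted p 0.419).

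The list of partner factors, with 11 genes tested, held factors that pair with ATF4 or bind next to it. It also held Trib1 and Trib2, which are not such factors. None of the list changed, and 3 had an unadjusted limma p under 0.05, all with higher estimates. Atf3, a stress-induced repressor and ATF4 target, had 0.889, 0.988, 0.777 and 0.512 CPM in AdGFP and 1.08, 1.64, 1.96 and 1.95 CPM in AdNAMPT. Its groups did not overlap in CPM but did after TMM scaling, and its estimate was 1.09 with an SE of 0.27 (limma adjusted p 0.229). Jund, a subunit of AP-1, was estimated at 0.45 (SE 0.14; adjusted p 0.382), and Jun, its paralogue, 0.97. The C/EBP genes had estimates of 0.03 (Cebpa), -0.33 (Cebpb) and -0.01 (Cebpg).

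Among downstream enzymes of amino acid and one-carbon metabolism, 8 of 11 were tested and none changed, with a median of 0.03. Cth and Cbs, the enzymes that turn homocysteine into cysteine, had the smallest unadjusted p. Cth measured 2727, 1178, 1706 and 1595 CPM in AdGFP and 1599, 1438, 893.4 and 1248 CPM in AdNAMPT. AdGFP replicate 1 was its highest library, as for Trib3. Cth was estimated at -0.61 on the log2 scale (SE 0.23; adjusted p 0.465 in limma) and Cbs at -0.31 (SE 0.14; adjusted p 0.511).

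Amino acid transporters had 9 of 11 genes tested and none changed, with a median of 0.07. Slc38a2, which carries neutral amino acids and is a classical target induced by amino acid shortage, measured 99.4, 84.9, 133.9 and 92.7 CPM in AdGFP and 86.5, 75.5, 78.7 and 60.2 CPM in AdNAMPT. After TMM scaling its groups did not overlap. Limma gave Slc38a2 an estimate of -0.58 with an SE of 0.14 (adjusted p 0.211), and DESeq2 placed it past the threshold with an adjusted p of 0.0487. Slc3a2, the heavy chain of several exchangers, had -0.34 (SE 0.09; adjusted p 0.300), while Slc1a5, a glutamine carrier, had 0.51 and Slc7a3 had 0 reads in every library.

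All 12 cytosolic tRNA synthetase genes were tested and none changed. Their estimates were small, from -0.19 to 0.02, with 1 higher and 11 lower, but scaling by library size alone gave 9 higher and 3 lower. That scaling moved the median of all genes tested from 0.0015 to 0.0859. The median of the synthetase list went from -0.0330 to 0.0531 and so stayed below that of all genes. Nars (log2 fold change -0.14, SE 0.06) and Eprs (-0.19, SE 0.08) had the smallest unadjusted p, with adjusted p of 0.500 and 0.503 by limma. Mars, which overlaps Ddit3, had -0.03.

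Of 20 other genes described as targets of ATF4 or CHOP, 16 were tested and none changed, with a median of 0.02. Gadd45a, a growth arrest gene that p53 and other stress pathways also induce, measured 3.08, 6.14, 2.81 and 4.60 CPM in AdGFP and 7.66, 11.4, 8.70 and 8.43 CPM in AdNAMPT. All AdNAMPT libraries lay above all AdGFP libraries, in CPM and after TMM scaling. Its estimate of 1.23 on the log2 scale (SE 0.22) had a limma adjusted p of 0.0606, place 37 among all genes. It passed the threshold in 4 of 17 alternatives. Vegfa had the next smallest p in the list, with 0.19 (SE 0.11; adjusted p 0.640). Gdf15, a stress hormone, had 0.41, and Ddit4, an mTORC1 inhibitor, had -0.59 with an unadjusted limma p of 0.200.

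**Figure D4:**
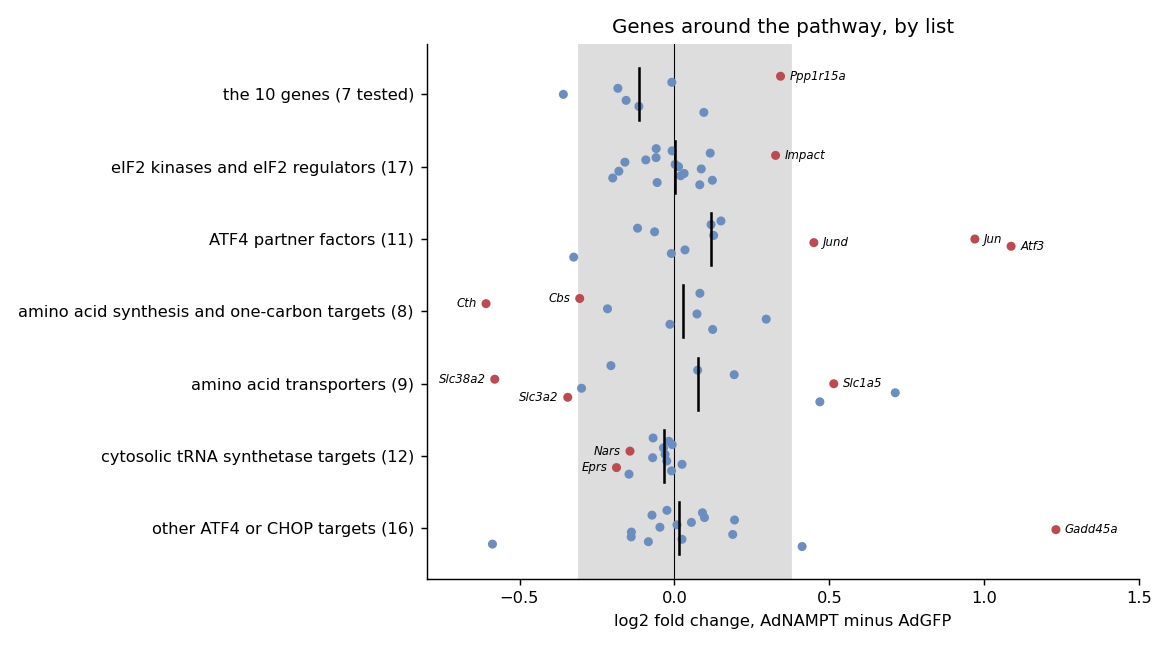
Log2 fold change, AdNAMPT minus AdGFP, of every tested gene of each list (number tested in brackets), with red and a name for an unadjusted limma p under 0.05, a black line at the list's median, and a grey band for the 5th to 95th percentile of all genes tested. The medians lie between -0.11 and 0.12, and the 12 named genes outside the top row are 6 higher and 6 lower.

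RefSeq windows were found for 64 of the 84 genes by symbol, and 16 of these held a match to the composite element, 5 of them synthetase genes (Aars, Gars, Iars, Tars and Yars). The 11 tested genes with a match had a median log2 fold change of -0.08 (2 higher, 9 lower), and the 45 tested genes without one had a median of 0.03. This split was not recomputed with scaling by library size alone. Under that scaling the synthetase list went from 1 higher and 11 lower to 9 higher and 3 lower, while the median of all genes tested went from 0.0015 to 0.0859. Within the 10 genes, those with a match had estimates of -0.36 (Trib3), -0.18 (Chac1) and 0.52 (Asns).

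Marker genes of other liver cells were compared as well, since in bulk tissue fewer cells of a type and less RNA per cell cannot be told apart. All 6 Kupffer cell and macrophage markers had lower estimates in AdNAMPT (median log2 fold change -0.38, and -0.25 without AdNAMPT replicate 1), none changed, and their summed level was 252.0 to 313.6 CPM in AdGFP and 182.8 to 305.3 CPM in AdNAMPT. Endothelial, stellate, cholangiocyte and hepatocyte markers had medians of -0.0094, 0.05, 0.04 and -0.19, with none changed. All 5 erythroid markers had higher estimates (median 0.10) and none changed. Of 6 lymphocyte, 5 neutrophil, 4 adipocyte and 5 pancreatic markers, 1, 2, 1 and 1 passed the filter, none changed, and Cpa1 had 0 reads in every library. The part of these cells in the values of the 10 genes was not tested.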

How the data were processed

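Single 50-base reads were, per the study's methods, aligned by the authors with STAR to Ensembl GRCm38 (release 76) and uniquely aligned reads were counted per gene with featureCounts; versions in the submitters' processing notes are STAR 2.4.0b and featureCounts 1.4.5. The labels name Ribo-Zero and the study's methods poly-A selection. Counts were deposited as whole reads for each gene, with 1 library in each file. The deposited CPM are counts scaled to the library total, and the deposited RPKM are CPM per kilobase of exon. Recomputing CPM and RPKM from the counts gave the deposited values for all 41388 features. Coordinates are those of the files (GRCm38), and symbols come from GENCODE M21.

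Ribosomal RNA genes (355 features) and genes not above 1 CPM in at least 3 libraries were left out. TMM-scaled counts were fitted with limma 3.58.1 (voomWithQualityWeights, lmFit, eBayes) in R 4.3.3, AdNAMPT minus AdGFP, with Benjamini-Hochberg adjustment over all genes tested; edgeR 4.0.16 and DESeq2 1.42.0 gave alternatives. Genes failing the filter were fitted without it. Correlations used log2 TMM CPM with a prior count of 2. Scripts were tested on simulated data. Python 3.11.15 with pandas 2.3.3, numpy 2.4.6 and matplotlib 3.10.9 was used otherwise.

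The genes and lists were chosen with earlier results of these data known. Named were all 10 genes, Nampt, Fgf21, the changed genes or else the 2 smallest p in each of the 6 pathway lists, and the 5 genes most like the mean profile; other list genes were named after their values were seen. Alternatives were 3 other tests, no sample weights, 2 other scalings, 2 other filters, a replicate block and each of 8 libraries left out. Floors of 3 reads cover counting error only.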

Additional observations from a re-analysis of the deposited data

Results flagged for a closer look

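Among the values named in the text, 47 sets of 4 libraries were examined for a library far from the other 3, and 2 were found where chance alone would give about 2.35. Both belong to genes around the pathway and neither to the 10 genes. Eif2ak4, which codes for the amino acid sensor GCN2, measured 8.26 CPM (121 reads) in AdNAMPT replicate 2 while the other 3 AdNAMPT libraries held 10.5 to 10.8 CPM. Slc3a2, the heavy chain of amino acid exchangers, measured 27.7 CPM (332 reads) in AdNAMPT replicate 1 while the other 3 held 21.5 to 22.5 CPM, so that replicate 1 lay inside the AdGFP range of 23.8 to 29.2 CPM. Without these libraries the log2 fold changes were -0.09 for Eif2ak4 and -0.39 for Slc3a2, from -0.20 and -0.34.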

How the results depend on the processing

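None of the 10 genes changed in any of the 17 alternatives that gave them an adjusted p (Asns, Psat1 and Phgdh had none with a mean count of at least 10, nor Phgdh with DESeq2), and Atf4, Atf5, Ddit3, Trib3, Psat1 and Ppp1r15a kept the direction of their estimates in all that gave a value. Sesn2 turned to 0.0195 with edgeR's quasi-likelihood test, 0.0161 with its exact test, 0.0190 with DESeq2, 0.0180 without sample weights, 0.0734 with library size only and 0.00827 without a filter. Leaving out 1 library gave -0.0918 to 0.0853 for Sesn2, -0.179 to 0.903 for Asns, -0.463 to 0.0824 for Chac1 and -0.0788 to 0.266 for Nampt. Over all genes, 65 changed with edgeR's exact test and 75 with DESeq2, against 34. Of the pathway lists, 1 gene changed with the exact test, 2 with DESeq2, 1 with library size only and 0 to 1 when 1 library was left out; these were Gadd45a and, with DESeq2, Slc38a2. The cause of these differences was not tested.

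The titles number mice 1 to 4 in both groups, but nothing shows that the numbers pair animals: correlations of same-numbered deviations were 0.23, -0.05, 0.21 and 0.0052, and 2 of 4 matched their own number best. With the replicate block 41 genes changed, and 0 of the 10 genes and 0 of the pathway lists.

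Depth limits Asns, Psat1, Phgdh and Fgf21, which had 39, 45, 9 and 121 reads in the series. For each vector 4 mice were sequenced, and the labels name no litter, cage or batch. The tests thus set the difference between groups against the spread between the libraries within them. Mean pairwise r of the 7 genes was -0.0036 to 0.20 when 1 library was left out.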
